A study of Mus musculus with 4 samples.

Results

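The glycosyltransferases that build and cap the sugar chains of glycoproteins and glycolipids were examined in 4 clonal mouse mammary tumor cell lines, the epithelial lines E1 and E2 and the mesenchymal-like lines M1 and M2. Members were all genes with a symbol of the B3galt, B4galt, B3gnt, B4galnt, Galnt, St3gal, St6gal, St6galnac, St8sia, Fut, Mgat and Gcnt families that had a probe set listed under that symbol alone. This gave 83 of 19938 genes, covered by 85 probe sets, and for each gene the probe set with the highest mean level was used. B4galt2 was left out because its probe set is also listed under Ccdc24. All 4 lines came from a spontaneous tumor of a female FVB Tg MMTV/neu mouse, in which the mammary tumor virus promoter drives a rat ErbB2 (neu) transgene. E1 and E2 were cloned from cells sorted for high CD24 and high neu and were grown in RPMI with fetal bovine serum. M1 and M2 were cloned from cells with low CD24 and low neu and were grown in MEGM, a mammary epithelial medium, with less serum and with pituitary extract, epidermal growth factor, insulin and hydrocortisone. Each line is 1 clone measured on 1 array, and no line was treated. The type of a line and its medium go together here and cannot be told apart, nor can fewer cells of a kind from less RNA per cell in such bulk RNA.

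Glycosyltransferases work mostly in the Golgi, where each adds a particular sugar from a nucleotide-sugar donor to a growing chain. Galnt enzymes start mucin-type O-glycans on serine and threonine, Gcnt and Mgat enzymes set branches on O- and N-glycans, and galactosyl- and N-acetylglucosaminyltransferases lengthen the arms. Sialyl- and fucosyltransferases finish the chains, which serve in mammary epithelium as ligands of lectins and as part of the mucin and adhesion protein surface.

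The arrays gave normalized log2 expression levels, and a difference of 1 on this scale is 2-fold. The median of all values was 6.78, and this level is used below as a mark of a low signal, since the background of the arrays is not known and a fold from a low level is no estimate of a ratio of transcripts. Of 10 epithelial markers 6 were higher in E1 and E2 by limma, and of 9 mesenchymal markers 5 were higher in M1 and M2. E-cadherin (Cdh1) was at 12.15 and 12.31 in E1 and E2 and at 6.70 and 6.51 in M1 and M2, and Zeb1 was at 7.49, 6.96, 10.99 and 10.64. The keratins Krt8 and Krt18 and the mesenchymal markers Vim and Fn1 were above 12 in all 4 lines and were not called, and Col1a2 stayed between 7.15 and 7.39. Cd24a, whose protein was used for the sort, was at 11.61 and 12.15 in E1 and E2 and at 12.39 and 12.53 in M1 and M2 (limma adjusted p = 0.309), so its RNA level was not lower in the lines sorted as CD24 low. Between the types limma called 0 of 5 leukocyte, 0 of 4 endothelial and 0 of 4 adipocyte markers, with 0, 1 and 1 at an unadjusted p under 0.05. Single markers of these cells had higher values in M1 and M2, with the adipocyte lipid carrier Fabp4 at 5.26, 5.50, 7.20 and 10.77 (difference -3.61, limma adjusted p = 0.273) and the leukocyte lysozyme Lyz2 at 5.08, 5.65, 8.91 and 6.57 (-2.38, 0.283). Adipoq and Ptprc were below the median of all values in every line. The leukocyte marker Cd68 was above it in every line, at 10.66, 8.77, 10.59 and 11.60 in E1, E2, M1 and M2. The part of such cells in the differences was not tested.

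Comparing E1 and E2 with M1 and M2, limma called 8 of 83 glycosyltransferase genes at an adjusted p under 0.05 (9.64%), with 4 higher in E1 and E2 and 4 higher in M1 and M2. Of all 23410 probe sets that have a symbol it called 3.73%, which is made up of 2.02% higher in E1 and E2 and 1.72% higher in M1 and M2. At an unadjusted p under 0.05 the members numbered 25 (30.1%), against 18.0% of all probe sets. Among genes whose mean lay above the median of all values, the called shares were 8 of 45 members (17.8%) and 5.91% of all genes. Called genes such as St8sia6 and Galnt7, low in a whole type, passed this filter through the type in which they were high. The filter thus favors genes that differ, and these shares are a description only. The means of the types were at least 2-fold apart for 17 members (20.5%), against 9.73% of all probe sets. The median difference of the members was near 0, at -0.02 (epithelial minus mesenchymal-like, log2 scale), and that of all genes was -0.00. Of the 83 genes, 59 stayed within 2-fold over all 4 lines and 35 were below the median of all values in every line. The members were chosen with results of these arrays known, and whether they differ more often than other genes was not tested.

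**Figure D1:**
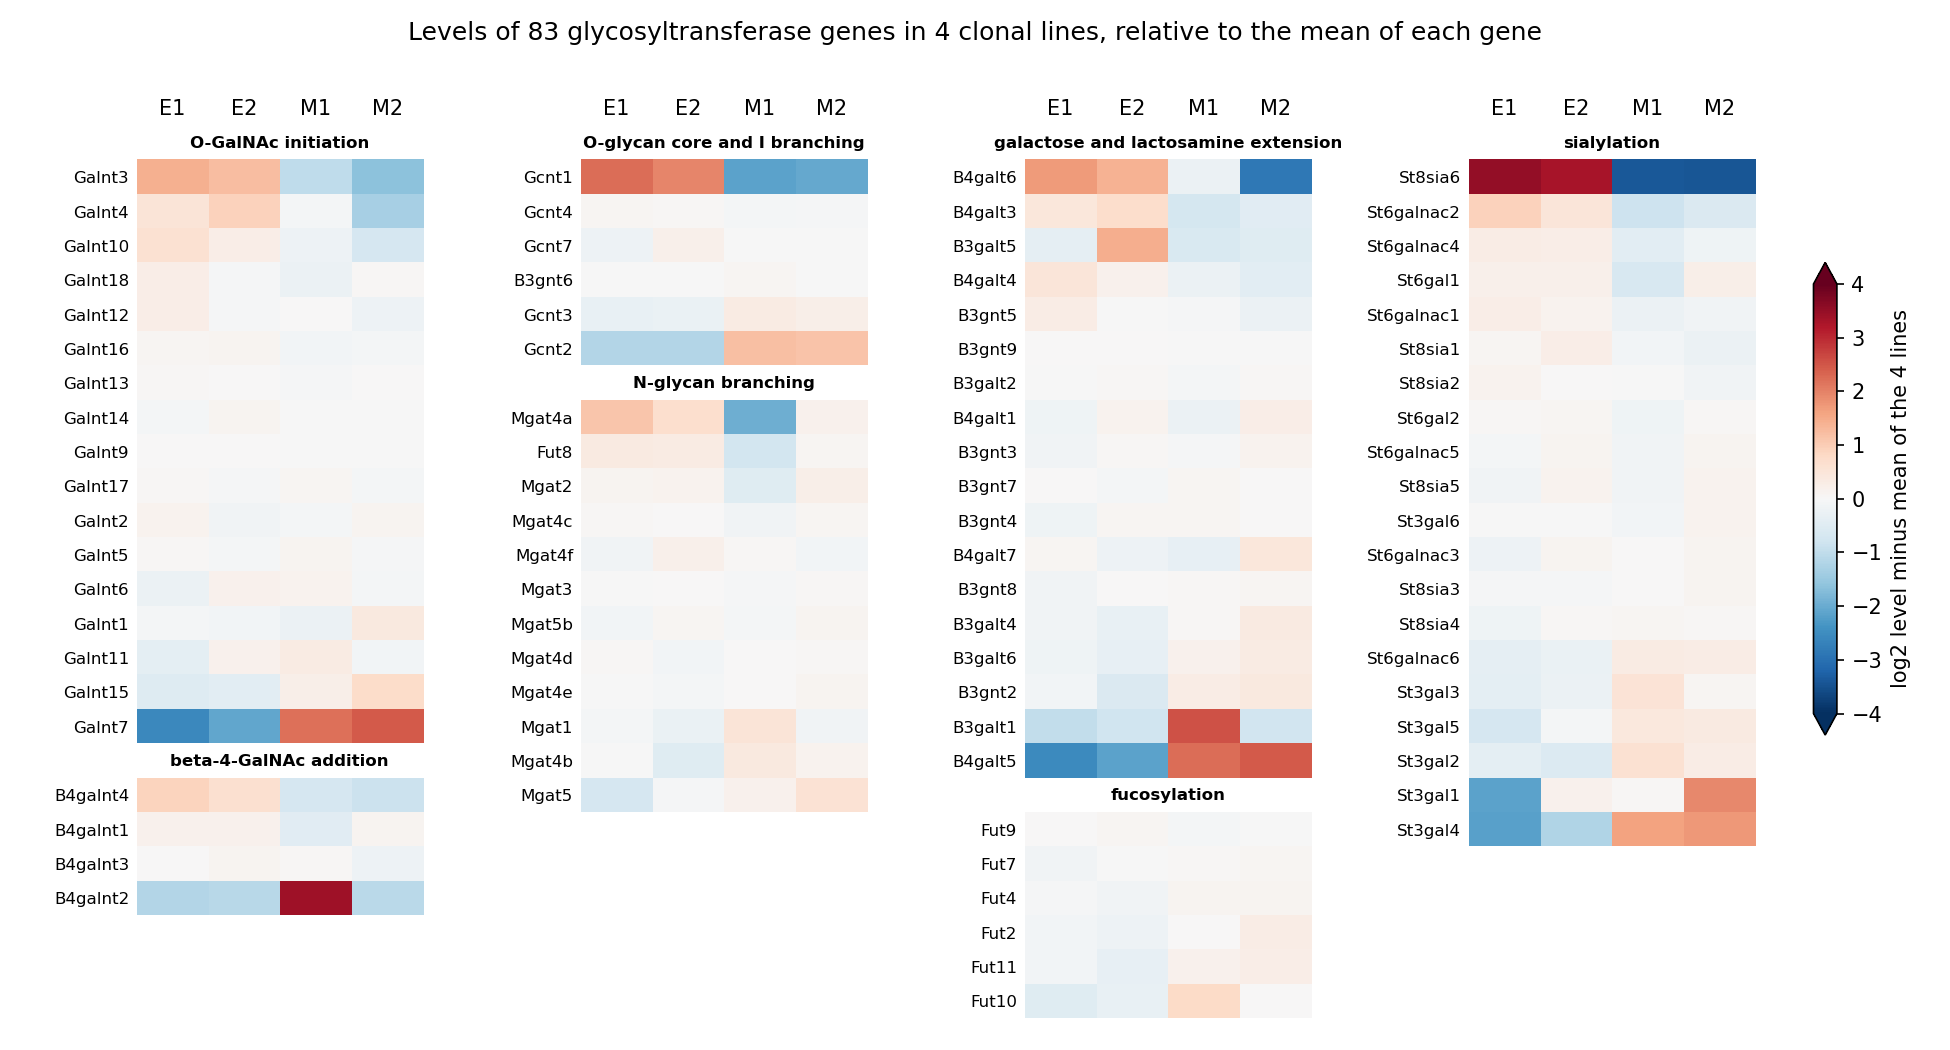
Each row is a glycosyltransferase gene and each column a line; color gives the log2 level minus the mean of that gene over the 4 lines, with red above and blue below, and genes are grouped by the step they catalyze. St8sia6 and Gcnt1 are red in E1 and E2 alone, Galnt7 and B4galt5 in M1 and M2 alone, and B4galnt2 and B3galt1 in M1 alone.

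The genes higher in the epithelial lines act at the start, the branch and the end of O-glycans and on a lactosamine variant. St8sia6 (probe set 10480238), which joins a sialic acid to the sialic acid that ends a chain, mostly on O-glycans, was at 11.83 and 11.62 in E1 and E2 but at 4.94 and 4.92 in M1 and M2. The epithelial lines were 111-fold higher (log2 difference 6.79, standard error 0.13, limma adjusted p = 0.00252), and the level in M1 and M2 was below the median of all values. Of the 83 genes it had the largest difference between the types. Gcnt1 (probe set 10466521), the enzyme of the core 2 branch of O-glycans, was at 10.06, 9.75, 5.67 and 5.75 in E1, E2, M1 and M2. It was 18.3-fold higher in the epithelial lines (log2 difference 4.19, standard error 0.15, limma adjusted p = 0.003), and the clones of each type lay within 0.31 of each other. Galnt3 (probe set 10483249), an initiating enzyme known for glycosylating the hormone Fgf23, was at 11.53, 11.34, 9.08 and 8.47. It was 6.33-fold higher in E1 and E2 (log2 difference 2.66, standard error 0.25, limma adjusted p = 0.0212) and kept a level above the median of all values in M1 and M2. B4galnt4 (probe set 10558773), which makes the GalNAc-containing variant of lactosamine, was at 7.99, 7.72, 6.41 and 6.21. It was 2.92-fold higher in E1 and E2 (log2 difference 1.55, standard error 0.15, limma adjusted p = 0.0253), the smallest of the differences called.

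The genes higher in the mesenchymal-like lines were a galactosyltransferase, a Galnt enzyme, a sialyltransferase and an enzyme of the I branch. B4galt5 (probe set 10489891), a galactosyltransferase known for making lactosylceramide, was at 6.19 and 6.60 in E1 and E2 but at 10.97 and 11.19 in M1 and M2. M1 and M2 were 25.7-fold higher (log2 difference -4.68, epithelial minus mesenchymal-like, standard error 0.19, limma adjusted p = 0.00389). Galnt7 (probe set 10578771), which adds GalNAc to peptides that already carry it, was at 5.38, 5.86, 10.14 and 10.40 in the same order. It was 25.1-fold higher in M1 and M2 (log2 difference -4.65, standard error 0.22, limma adjusted p = 0.00474), with E1 and E2 below the median of all values. St3gal4 (probe set 10592084), which caps lactosamine with sialic acid and takes part in making selectin ligands, was at 6.19, 7.16, 9.97 and 10.10. It was 10.3-fold higher in M1 and M2 (log2 difference -3.36, standard error 0.36, limma adjusted p = 0.0298), and E1 and E2 were themselves 0.97 apart. Gcnt2 (probe set 10404702), which puts the I branch on lactosamine chains, was at 5.93, 5.92, 8.32 and 8.24. It was 5.13-fold higher in M1 and M2 (log2 difference -2.36, standard error 0.10, limma adjusted p = 0.00409), with a spread of at most 0.07 between clones of a type. When either E1 or E2 was left out, limma called 0 of the 83 genes and 0 of the 23410 probe sets, with 16 and 17 members and 2579 and 2651 probe sets at an unadjusted p under 0.05. Leaving out M1 or M2, so that E1 and E2 alone gave the spread, brought 11 and 16 member calls (13.3% and 19.3%), the 8 genes among them, against 7.52% and 8.03% of all probe sets. With values below 6.78 raised to it, 3 of the 8 were called (St8sia6, B4galt5 and Gcnt2, limma adjusted p = 0.0276, 0.0316 and 0.0298), against 223 of all probe sets. In these 3 genes the floor made the clones of the low type equal, so that type added no spread. The log2 difference of St8sia6 then was 4.95, of Gcnt1 3.13, of B4galt5 -4.30, of Galnt7 -3.50 and of Gcnt2 -1.50.

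**Figure D2:**
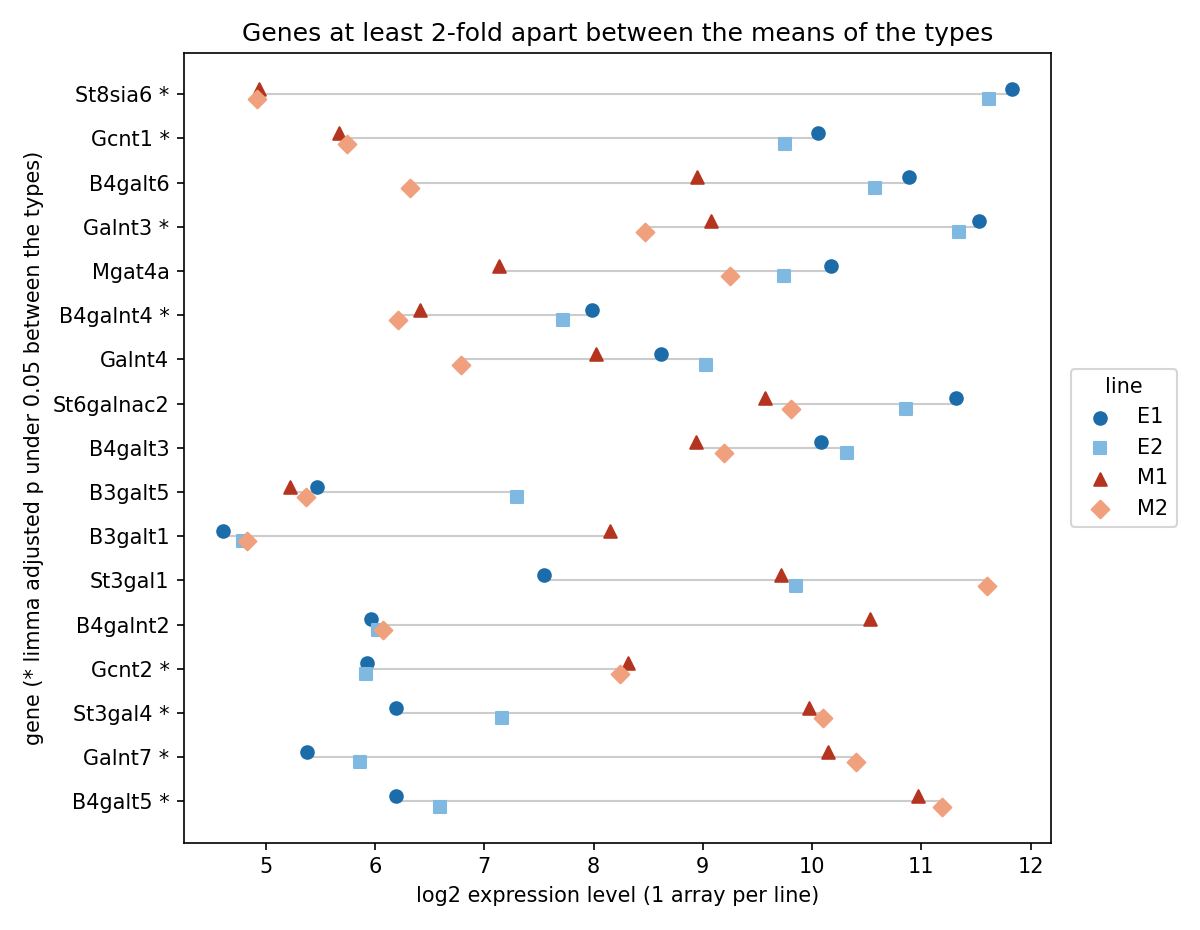
Points give the log2 level in each line (1 array per line) for the 17 genes whose means were at least 2-fold apart between the types, and a star marks the 8 called by limma. E1 and E2 lie apart from M1 and M2 for the starred genes, while for B4galnt2 and B3galt1 M1 stands alone and for St3gal1 the types overlap.

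Since these genes moved together with the types, the 250 bases before their RefSeq transcription starts were read for the E-box CAGGTG, the sequence that Zeb and Snail repressors are known to bind, on both strands (as CACCTG on the other), with no other motif searched. Of all 32851 windows of this length 17.2% hold it, and of the 87 windows of the 61 members with an entry 18.4%. Counted by gene, the shares were 19.4% of all genes and 23% of the members. It was found in 4 of 6 windows and before 3 of the 4 genes higher in the epithelial lines (Galnt3, B4galnt4 and Gcnt1, the last in 2 of 3 windows). In the genes higher in the mesenchymal-like lines it was found in 0 of 6 windows and before 0 of 4 genes. A match is no binding site, and the arrays measured no binding. The contrast between these small groups, picked by their difference between the types, was not tested. Nor was a part of Zeb or Snail in the differences. The windows with a match are shown with those of St8sia6 and B4galt5, which have none and had the largest differences in each direction. They are written 5′ to 3′ along the gene, and capitals mark the E-box.
Galnt3, GRCm38.p6 chr2:66124794-66125043, minus strand: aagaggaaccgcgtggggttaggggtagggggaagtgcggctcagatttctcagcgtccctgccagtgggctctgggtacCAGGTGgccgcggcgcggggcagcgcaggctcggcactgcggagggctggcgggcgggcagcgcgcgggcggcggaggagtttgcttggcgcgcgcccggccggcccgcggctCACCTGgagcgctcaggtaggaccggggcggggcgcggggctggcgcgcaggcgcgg
B4galnt4, GRCm38.p6 chr7:141060728-141060977, plus strand: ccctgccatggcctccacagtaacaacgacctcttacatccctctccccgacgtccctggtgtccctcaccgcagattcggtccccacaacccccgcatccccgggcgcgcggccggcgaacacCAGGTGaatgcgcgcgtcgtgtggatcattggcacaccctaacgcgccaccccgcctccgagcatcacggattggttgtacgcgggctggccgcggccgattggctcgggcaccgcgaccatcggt
Gcnt1, GRCm38.p6 chr19:17356668-17356917, minus strand: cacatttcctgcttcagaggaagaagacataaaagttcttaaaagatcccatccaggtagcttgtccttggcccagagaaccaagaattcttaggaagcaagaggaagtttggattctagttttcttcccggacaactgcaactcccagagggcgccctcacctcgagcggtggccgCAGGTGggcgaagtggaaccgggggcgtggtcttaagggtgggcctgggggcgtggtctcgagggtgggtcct
Gcnt1, GRCm38.p6 chr19:17339506-17339755, minus strand: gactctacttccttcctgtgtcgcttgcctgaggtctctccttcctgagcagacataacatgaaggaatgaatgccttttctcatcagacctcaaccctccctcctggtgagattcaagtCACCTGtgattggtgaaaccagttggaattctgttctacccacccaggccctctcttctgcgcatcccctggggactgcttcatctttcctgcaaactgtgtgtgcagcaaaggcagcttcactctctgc
St8sia6, GRCm38.p6 chr2:13793521-13793770, minus strand: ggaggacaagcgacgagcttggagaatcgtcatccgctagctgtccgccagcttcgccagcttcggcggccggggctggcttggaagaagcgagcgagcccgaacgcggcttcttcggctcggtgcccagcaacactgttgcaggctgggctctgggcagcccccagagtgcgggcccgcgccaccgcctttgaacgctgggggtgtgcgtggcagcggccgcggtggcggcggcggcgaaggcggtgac
B4galt5, GRCm38.p6 chr2:167349179-167349428, minus strand: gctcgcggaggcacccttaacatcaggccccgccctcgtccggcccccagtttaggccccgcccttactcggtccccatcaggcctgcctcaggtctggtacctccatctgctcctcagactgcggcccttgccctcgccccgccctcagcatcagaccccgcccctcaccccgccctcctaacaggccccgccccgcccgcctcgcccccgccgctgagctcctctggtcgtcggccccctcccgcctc
In Galnt3 the matches begin 170 and 57 bases before the start, in B4galnt4 126 bases and in the windows of Gcnt1 73 and 130 bases.

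Of the 17 genes at least 2-fold apart between the type means, 9 did not pass, 6 of which are described here and the others with M1. B4galt6, the other lactosylceramide synthase of the family, was at 10.89 and 10.57 in the epithelial lines but at 8.95 in M1 and 6.32 in M2. The types were 3.10 apart (log2, standard error 0.95, limma adjusted p = 0.218), the mesenchymal-like clones 2.63, and the sign was opposite to that of B4galt5. Galnt4, an initiating enzyme that prefers glycosylated peptides, was at 8.62, 9.03, 8.03 and 6.79 (difference 1.42, limma adjusted p = 0.25). Both B4galt6 and Galnt4 were lowest in M2. With E1 and E2 alone giving the spread, B4galt6 passed without M1 (difference 4.41, limma adjusted p = 0.00383) and without M2 (1.78, 0.0234), and Galnt4 passed without M1 (2.04, 0.026). St6galnac2, which adds sialic acid to the GalNAc of O-glycans, was at 11.32, 10.86, 9.57 and 9.81 (difference 1.40, limma adjusted p = 0.061). B4galt3, a lactosamine galactosyltransferase, was at 10.09, 10.32, 8.94 and 9.20 (difference 1.14, limma adjusted p = 0.0547). For St6galnac2 and B4galt3 the clones of each type lay within 0.46 of each other, and B4galt3 passed when the arrays were centred on their medians (limma adjusted p = 0.0439). St3gal1, which caps the core 1 galactose of O-glycans, was at 7.55, 9.86, 9.72 and 11.60, so that E2 and M1 were alike and the types overlapped (difference -1.96, limma adjusted p = 0.474). A second probe set of St3gal1 was at 7.23, 7.31, 7.57 and 7.52, and the 2 probe sets of this gene disagree. B3galt5, which makes the chains of Lewis a type, was at 5.47, 7.30, 5.22 and 5.37, with E2 alone above the median of all values (difference 1.09, limma adjusted p = 0.527).

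M1, the line that formed no tumor in the study, was set against E1, E2 and M2 to ask which members set it apart. limma called 1 of 83 genes, higher in M1 (1.20%), against 0.0940% of all probe sets, or 0.0854% higher in M1. At an unadjusted p under 0.05 there were 10 members (12.0%), against 7.01%. M1 lay at least 2-fold outside the range of the other lines for 3 genes (3.61%), against 2.29%. B4galnt2 (probe set 10390196), which adds the GalNAc of the Sda blood group antigen, was high in M1 alone, at 10.53 against 5.96, 6.03 and 6.07 in the other lines (6.02 ± 0.06, SD, n = 3). The log2 difference of M1 from the mean of the other lines was 4.51 (standard error 0.12, limma adjusted p = 0.0338), and those lines were all below the median of all values. B3galt1 (probe set 10472436), a galactosyltransferase of type 1 chains, was at 8.15 in M1 and 4.61, 4.79 and 4.83 in the others. M1 stood apart by 3.41 (standard error 0.15, limma adjusted p = 0.0504), just short of the threshold. B3galt1 passed in 4 of 8 alternatives, but not without E1 or without E2. The pass with values below 6.78 raised to it was built in, since that floor made E1, E2 and M2 equal. Mgat4a (probe set 10354003), which starts a branch on N-glycans, went the other way, with 7.14 in M1 against 10.17 (E1), 9.75 (E2) and 9.25 (M2). M1 was below the mean of the others by a difference of -2.59 (standard error 0.42, limma adjusted p = 0.395). The spread of the other lines (SD 0.46, n = 3) was larger than for B4galnt2 (0.06) and B3galt1 (0.11).

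Within a gene, the spread in this comparison comes from E1, E2 and M2 alone, since M1 was measured once. limma also draws that spread toward the one typical of all probe sets, which weighs most where the lines lie close together, as in B4galnt2. B4galnt2 was no longer called without E1 (limma adjusted p = 0.724), without E2 (0.798) or among probe sets with a mean above the median of all values (0.0639), settings in which limma called 0 of all probe sets (873, 865 and 966 at an unadjusted p under 0.05). The difference in these settings was between 4.48 and 4.51. Over all alternatives the difference of B4galnt2 ran from 3.75 to 4.55. The lowest came with values below 6.78 raised to it. That floor made E1, E2 and M2 equal, so a call in that setting was built in. Lyz2 was also highest in M1, at 8.91, and the endothelial marker Cdh5 was at 7.58 against 5.99, 6.15 and 6.72. Ptprc (leukocytes) and Pecam1 (endothelium) were below the median of all values in every line, and the leukocyte marker Cd68 was above it. Ptprc was at 5.88 in M1 and 5.51 to 5.59 elsewhere, and Pecam1 at 5.74 in M1 and 5.83 to 5.90 elsewhere. The summed log2 level of the 5 leukocyte markers was highest in M1, at 37.8 against 33.8 (E1), 32.7 (E2) and 36.4 (M2). That of the 4 endothelial markers was too, at 24.2 against 22.4, 23.2 and 23.6. Only Lyz2 and Ptprc of the leukocyte and Cdh5 of the endothelial markers were highest in M1. Cd3e (6.62 in M1) and Pecam1 were lowest there, so the sums show no joint rise. The part of other cells in the result was not tested. Of the other members at an unadjusted p under 0.05 in M1, 4 that act on N-glycans are given here, chosen after their values were seen. B4galnt1, Fut10 and St3gal3 also had such a p and are left out of this choice. Of these, B4galnt1 was lowest in M1, while Fut10 and St3gal3 were highest there. Fut8, which adds the core fucose, had a level of 9.62 in M1 and of 10.44 to 10.72 in the other lines, and St6gal1, the main sialyltransferase of N-glycans, was at 9.68 and between 10.52 and 10.57. Mgat2, needed for the second arm, had a level of 9.99 in M1 and of 10.58 to 10.69 elsewhere, whereas Mgat1, which starts complex N-glycans, was at 9.15 and between 8.37 and 8.55. Fut8, St6gal1, Mgat2 and Mgat1 did not pass (limma adjusted p = 0.439, 0.312, 0.469 and 0.495), and all were within 2-fold of the nearest other line.

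**Figure D3:**
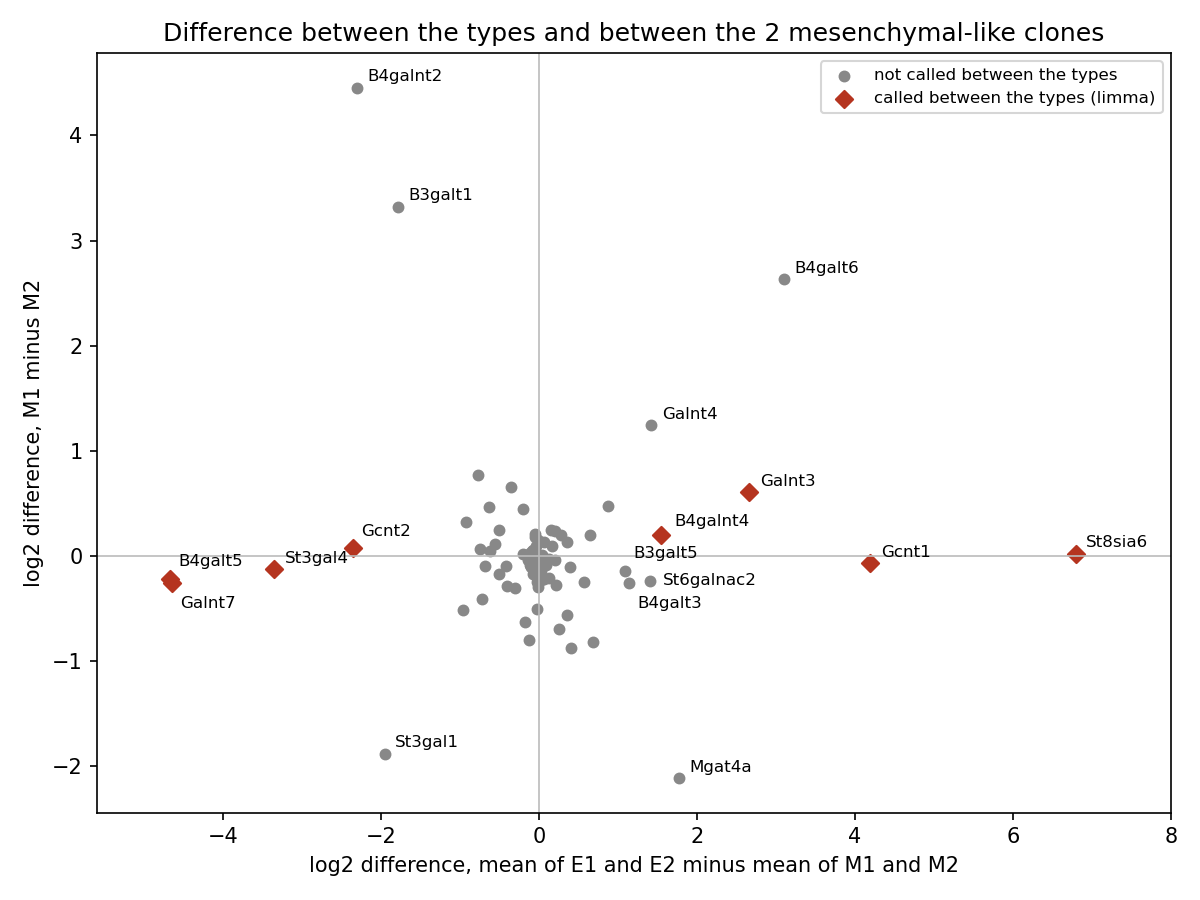
Each point is 1 of the 83 genes, with the log2 difference between the means of the types on the horizontal axis and M1 minus M2 (log2) on the vertical axis; diamonds are called between the types by limma. The called genes lie within 0.61 of 0 on the vertical axis, while B4galnt2 (4.46), B3galt1 (3.32), B4galt6 (2.63), Mgat4a (-2.12) and St3gal1 (-1.88) lie far from it. A wide gap between M1 and M2 itself makes a call between the types less likely.

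Clones of 1 type also differed from each other in some members. M1 and M2 were at least 2-fold apart in 6 of 83 genes (7.23%), against 5.86% of all probe sets, a comparison of 1 array with another and without a test. These were B4galnt2, B3galt1, B4galt6 and Galnt4, with a higher level in M1 by 4.46, 3.32, 2.63 and 1.24 on the log2 scale, and Mgat4a and St3gal1, with M2 4.34-fold and 3.69-fold above M1. The 8 genes called between the types were not among these 6. This follows largely from the test, since limma sets the difference between the types against the gap between clones. It is no separate result. E1 and E2 were at least 2-fold apart in 2 genes (2.41%, against 2.24% of all probe sets), St3gal1 and B3galt5, both with the higher level in E2. St3gal1, by its brighter probe set, was thus the 1 member that was at least 2-fold apart within each type. Its second probe set was at 7.23, 7.31, 7.57 and 7.52 in E1, E2, M1 and M2 and did not show this. With the probe sets of a gene averaged, M1 and M2 were 2-fold apart in 5 genes.

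Over the 83 genes as a set, the lines differed between the types more than within them. The root mean square log2 difference was 0.42 between E1 and E2 and 0.81 between M1 and M2, and it ran from 1.43 to 1.59 for the 4 pairs of an epithelial with a mesenchymal-like line. Over all 19938 genes it was 0.40 and 0.58 within the types and between 0.90 and 0.91 across them. A few large differences weigh heavily in this measure, and the median size of the difference between the types was 0.25 for the members and 0.17 for all genes. These distances are a description without a test.

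**Figure D4:**
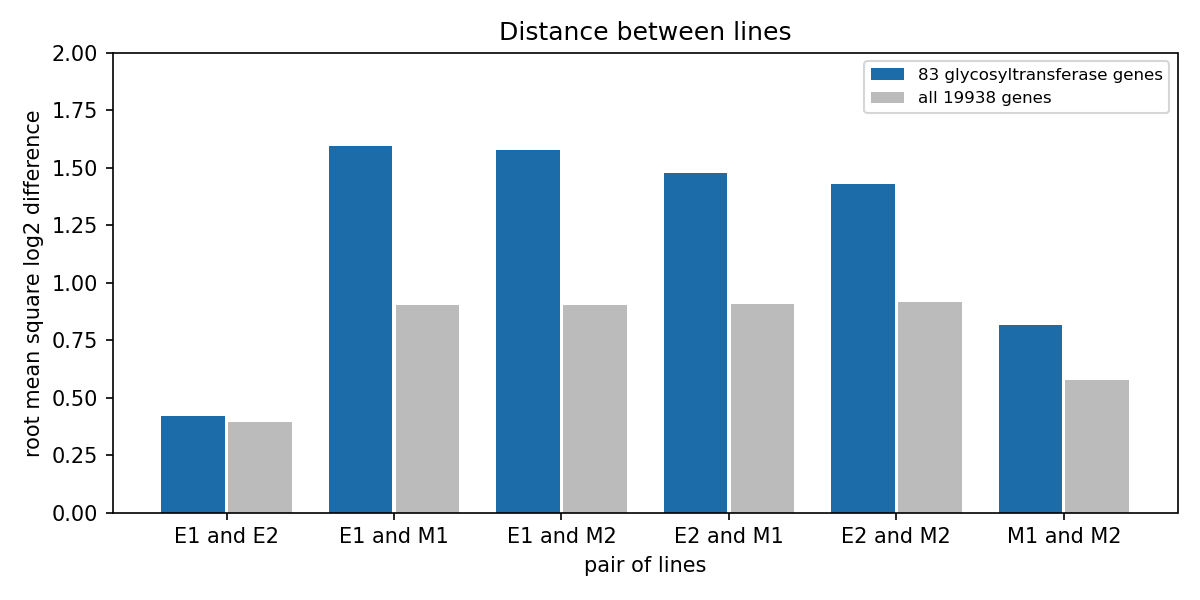
The height of a bar is the root mean square difference (log2) of a pair of lines, over the 83 glycosyltransferase genes and over all 19938 genes. Pairs across the types stand at 1.43 to 1.59 for the glycosyltransferases, against 0.42 for E1 and E2.

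The remaining members are given by the step they catalyze. Of 17 initiating Galnt genes, 1 was called higher in each type, 9 were below the median of all values in every line and 12 stayed within 2-fold. Galnt2 and Galnt1, broadly expressed members, were between 11.04 and 11.33 and between 9.96 and 10.59. Galnt10 was at 10.79, 10.45, 9.99 and 9.52 in E1, E2, M1 and M2 and Galnt15 at 6.81, 6.91, 7.57 and 8.09, neither of which passed (limma adjusted p = 0.170 and 0.125). Of the 6 genes of O-glycan core and I branching, Gcnt1 and Gcnt2 were called in opposite directions, and Gcnt3, Gcnt4, Gcnt7 and B3gnt6 were below the median of all values throughout. Gcnt3, which makes core 2 and core 4 branches in mucin-secreting cells, had levels of 6.12 and 6.16 in E1 and E2 and 6.75 and 6.64 in M1 and M2 (limma adjusted p = 0.104).

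Of 12 genes of N-glycan branching and core fucose, limma called 0 between the types, and 0 were at an unadjusted p under 0.05. Mgat5, the branch enzyme that favors lactosamine chains on N-glycans, was at 8.53, 9.15, 9.36 and 9.78 (difference -0.73, limma adjusted p = 0.314), and Mgat4b was between 10.96 and 11.83. Mgat3, which adds the bisecting residue, was between 5.81 and 5.90. Of 18 genes of galactose and lactosamine extension, B4galt5 alone was called. B4galt1, the widely expressed lactosamine galactosyltransferase and part of lactose synthase in the lactating gland, was between 10.73 and 11.24, with no separation of the types. B3gnt2, the main enzyme of lactosamine repeats, was at 9.44, 8.95, 9.83 and 9.93 (difference -0.69, limma adjusted p = 0.205). B4galt7 and B3galt6, which build the linker of proteoglycans, were between 8.03 and 8.84 and between 7.22 and 7.89. Among the 4 B4galnt genes, B4galnt1, which makes the gangliosides GM2 and GD2, was at 12.41 and 12.39 in E1 and E2 and at 11.77 and 12.33 in M1 and M2.

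Of 20 sialyltransferases, 10 were below the median of all values in all lines, among them St8sia2 and St8sia4, the polysialic acid synthases, which were between 5.94 and 6.21 and between 4.64 and 4.87. St3gal4 was the 1 gene of 6 in the St3gal family that passed. St3gal2 was at 9.0, 8.84, 10.01 and 9.69 (limma adjusted p = 0.0821), St3gal3 at 9.94, 10.10, 10.89 and 10.42 (0.232) and St3gal5, the synthase of the ganglioside GM3, at 10.15, 10.76, 11.24 and 11.18 (0.234). St3gal6 was between 5.67 and 5.92. In St3gal2, St3gal3 and St3gal5 the types did not overlap, which was so for 52 of the 83 members (62.7%) and for 48.0% of all probe sets. St6galnac6, which acts on gangliosides, was at 9.13, 9.21, 9.81 and 9.77 (limma adjusted p = 0.0793), and St6galnac4 was between 10.70 and 11.40. Of 6 fucosyltransferases outside the N-glycan group limma called 0, with 1 at an unadjusted p under 0.05. Fut4, Fut7 and Fut9, which make Lewis x structures, were between 4.97 and 6.17 in all lines, and Fut2, which makes the H antigen of secretions, was between 7.19 and 7.69. Fut10 was highest in M1, at 8.93 against 7.67 (E1), 7.88 (E2) and 8.16 (M2) (difference of M1 1.03, limma adjusted p = 0.552).

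Genes that supply the sugar donors or trim the chains were examined beside the transferases. Of 21 donor supply genes, 1 was higher and 2 were lower in the epithelial lines by limma, with a median difference of 0.00. Cmas, which activates sialic acid for all sialyltransferases, was at 12.33, 12.48, 10.00 and 10.34 in E1, E2, M1 and M2 (log2 difference 2.23, standard error 0.17, limma adjusted p = 0.0129). Uap1, which makes the GlcNAc donor, was lower in the epithelial lines, at 9.36, 9.47, 10.55 and 10.61 (difference -1.17, limma adjusted p = 0.0219). Slc35d2, a nucleotide-sugar transporter, was lower as well, at 7.83, 7.80, 8.82 and 8.80 (limma adjusted p = 0.0266). Gne, the first enzyme of sialic acid synthesis, was at 11.37, 11.26, 10.69 and 9.81 and did not pass (limma adjusted p = 0.223). Of 8 genes of N-glycan trimming, 2 were lower in the epithelial lines and 0 higher, with a median of -0.11. The mannosidase Man1a was at 5.66 and 5.62 in E1 and E2 and at 9.93 and 11.38 in M1 and M2 (difference -5.02, limma adjusted p = 0.0281), and Man2a2 at 9.45, 9.14, 11.27 and 10.93 (limma adjusted p = 0.029). Man1c1, another mannosidase of the family, was at 8.85, 8.39, 7.86 and 11.30, highest in M2. C1galt1, which makes the core 1 structure that Gcnt1 branches, was at 10.93, 11.04, 10.68 and 10.57, and its chaperone C1galt1c1 was between 7.48 and 7.75, neither called. Of 5 other glycolipid synthesis genes limma called 0, with 2 at an unadjusted p under 0.05, and Ugcg, which makes the glucosylceramide that B4galt5 and B4galt6 extend, was between 9.02 and 9.58. Ugt8a, which makes galactosylceramide, was at 7.27, 8.48, 5.28 and 5.35 (difference 2.56, limma adjusted p = 0.0807). Of 13 glycan-removing enzymes limma called 0, with 6 at an unadjusted p under 0.05 and a median of -0.37, and the galactosidase Glb1 was at 10.17, 9.80, 11.22 and 11.02.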

How the data were processed

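RNA of E1, E2, M1 and M2 was measured on Affymetrix MoGene 1.0 ST arrays, 1 per line. The values deposited by the authors are log2 expression levels, already normalized, for 35556 probe sets, from 2.28 to 14.5. Per the labels they were made with Partek, and the version, background correction and normalization are not given in the sources used here. Array medians were 6.76, 6.75, 6.75 and 6.85, and values were not rescaled. The platform annotation gives 21789 probe sets 1 gene symbol, 1621 several and 12146 none. All 83 members have a gene ID in a later RefSeq table (GRCm38.p6), where 0 symbols differ.

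limma 3.58.1 in R 4.3.3 (lmFit and eBayes, two-sided, 2 residual degrees of freedom) was fitted to all 23410 probe sets with a symbol, once by type (epithelial against mesenchymal-like) and once for M1 against the rest, with Benjamini-Hochberg adjustment over all of them and a threshold of 0.05. A lone line is assumed to vary like the other lines. P-values set a difference against the spread between clones, which eBayes draws toward the spread typical of all probe sets. Where certain lines are said to give the spread, the spread within the gene itself is meant. The number of arrays limits the precision. Differences and tests are given for members that were called, that were at least 2-fold apart between the type means or in which M1 lay 2-fold outside the other lines; up to 3 genes of each related list are named by size of difference, besides genes named for their role after their values were seen. Members and lists were chosen with earlier results of these data known. The fits were checked on simulated data. Alternatives were other scalings, a filter and a floor on low levels, averaged probe sets, an intensity trend, other thresholds, the clone number as a block and leaving out each line.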

Additional observations from a re-analysis of the deposited data

How the results depend on the processing

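No result changed direction under the alternatives run. With values below the median of all values raised to it, 1 member was called higher in the epithelial and 2 in the mesenchymal-like lines. For M1 2 were called higher (B4galnt2 and B3galt1) and 1 lower. In B4galnt2 and B3galt1 the floor made E1, E2 and M2 equal, so these calls were built in. The members called were 3.61% in each comparison, against 0.953% (types) and 1.25% (M1) of all probe sets. For M1, 2 members (2.41%) were called higher with centred arrays, with an intensity trend and at an adjusted p under 0.1. Of all probe sets 0.171%, 0.265% and 0.239% were called in these settings. Among the brighter probe sets 0 of 45 members (8 at an unadjusted p under 0.05) and 0 of all 13845 were called. At 4-fold, 9 members differed between the type means and 1 between E1 and E2, which was also 1 with the brighter probe sets and with the raised floor. Leaving out a line gave 16 to 20 members 2-fold apart between the types and 3 to 17 with M1 outside the range. The shares of all probe sets at 4-fold and with a line left out were not computed, so these counts are a description of the members only. The highest M1 count came without M2, where the other lines are both epithelial. The same clone number in E and M names no shared culture. The deviations of same-numbered clones correlated at -0.04 over probe sets. Differences between clones go into this value as well, so it cannot show whether the numbers pair anything. With that replicate block, 2 members were called higher in the epithelial lines (5 in both directions), and 319 of all probe sets against 874. Of the values of named members under alternatives, 170 stayed on their side of the threshold, 27 lost their call and 14 gained one. The cause was not tested. Folds from levels near the unknown background are uncertain.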

Other observations

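Genes of proteins that bind, sulfate or carry glycans were examined as well. Of 9 galectins and selectins, 2 were higher in M1 and M2 by limma and 0 lower. Galectin-1 (Lgals1), which binds lactosamine-bearing chains, was at 8.56 and 6.90 in E1 and E2 but at 13.67 and 13.66 in M1 and M2 (limma adjusted p = 0.0258), and galectin-3 (Lgals3) at 7.22, 7.69, 11.51 and 12.50 (limma adjusted p = 0.019). Of 9 genes of glycan sulfation, Chst2, which sulfates GlcNAc in selectin ligands, was called, at 6.49 and 6.81 in E1 and E2 and 8.74 and 9.30 in M1 and M2 (limma adjusted p = 0.0285).

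Of 16 mucin-type acceptor proteins limma called 0, with 1 at an unadjusted p under 0.05. The membrane mucin Muc15 was at 7.50 and 8.82 in E1 and E2 and at 4.98 and 5.08 in M1 and M2 (limma adjusted p = 0.0638). Podocalyxin (Podxl), a sialylated surface protein, was at 10.86 in M2 and between 5.96 and 6.01 in the other lines, where no test was made for M2.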
